A study of Mus musculus with 3 samples.

Results

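The genes described here are 10 components of the LIF-STAT3 and BMP-SMAD signalling pathways, chosen by symbol: *Lifr*, *Il6st*, *Jak1*, *Jak2*, *Stat3*, *Bmp4*, *Bmpr1a*, *Bmpr1b*, *Smad1* and *Smad5*. All 10 had UMIs (unique molecular identifiers, each counting 1 captured RNA molecule) among the 30559 features that the deposited matrices list. They were followed through single-nucleus RNA-seq of 3 libraries from differentiated neurosphere cultures of the mouse subventricular zone, 1 library per condition. Control cultures had received a lentivirus with RFP, CBP-ablated cultures (CBPf/f+Cre) and p300-ablated cultures (p300f/f+Cre) a lentivirus with Cre and mCherry, so that every group carried a virus and only the ablated groups carried Cre. Neural stem cells came from newborn C57BL/6 pups, fluorescent cells were sorted and replated as clonal secondary neurospheres, and nuclei were taken on day 15 from a pool of about 15 cultures per condition and sorted for red fluorescence. The labels name tamoxifen as the treatment of all 3 groups, whereas the methods describe the viruses alone, and neither says from which mouse line the control cultures came.

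LIF and its relatives bind LIFR paired with gp130, the product of *Il6st*, and the JAK1 and JAK2 kinases held on these chains phosphorylate STAT3. BMP ligands such as BMP4 bind the type I receptors BMPR1A and BMPR1B, which phosphorylate SMAD1 and SMAD5. In neural stem cells both arms meet on astrocyte genes such as *Gfap*, where STAT3 and SMAD1 are known to be held together by the acetyltransferases p300 and CBP, whereas BMP signalling otherwise restrains the oligodendrocyte lineage.

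Promoters from RefSeq (GRCm38.p6, 250 bases before and 50 after each start) were found for all 10 genes, with 15 starts between them. Those of the 3 genes whose level moved past 1.5-fold in a library, and of their common target *Gfap*, are shown as the stretches next to the starts of the genes on which the results turn. Capitals mark GGCGCC, a GC-rich SMAD motif, in *Lifr* and TTCNNNGAA, the STAT motif, in *Gfap*. Each motif reads the same on both strands, and no match of one motif overlapped a match of another.
Lifr promoter, chr15:7129322-7129621, plus strand: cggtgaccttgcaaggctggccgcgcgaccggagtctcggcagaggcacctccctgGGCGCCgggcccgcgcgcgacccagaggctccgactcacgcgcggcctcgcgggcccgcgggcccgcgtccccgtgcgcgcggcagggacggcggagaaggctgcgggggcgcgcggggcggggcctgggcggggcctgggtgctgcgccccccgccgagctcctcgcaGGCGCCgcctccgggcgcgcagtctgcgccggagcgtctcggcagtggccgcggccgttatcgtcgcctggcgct
Bmpr1b promoter, chr3:141982215-141982514, minus strand: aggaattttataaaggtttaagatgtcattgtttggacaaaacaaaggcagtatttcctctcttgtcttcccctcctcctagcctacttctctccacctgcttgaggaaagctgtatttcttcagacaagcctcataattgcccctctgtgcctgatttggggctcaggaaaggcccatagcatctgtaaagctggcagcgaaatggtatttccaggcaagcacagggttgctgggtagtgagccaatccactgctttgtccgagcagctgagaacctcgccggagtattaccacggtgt
Bmp4 promoter, chr14:46390620-46390919, minus strand: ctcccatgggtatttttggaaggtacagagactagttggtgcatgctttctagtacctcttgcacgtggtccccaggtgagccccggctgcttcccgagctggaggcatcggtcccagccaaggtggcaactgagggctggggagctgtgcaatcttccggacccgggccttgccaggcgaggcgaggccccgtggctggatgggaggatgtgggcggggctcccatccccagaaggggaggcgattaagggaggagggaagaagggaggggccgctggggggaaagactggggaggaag
Gfap promoter, chr11:102897151-102897450, minus strand: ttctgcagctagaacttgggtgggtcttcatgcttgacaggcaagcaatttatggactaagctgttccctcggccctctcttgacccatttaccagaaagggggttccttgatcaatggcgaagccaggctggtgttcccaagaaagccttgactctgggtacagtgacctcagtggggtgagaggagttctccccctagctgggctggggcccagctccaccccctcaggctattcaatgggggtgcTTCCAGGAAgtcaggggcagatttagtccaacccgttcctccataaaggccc

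None of the 15 promoters held TTCNNNGAA, a motif present in 8.30% of all 32851 promoters of this length. *Gfap* held it as TTCCAGGAA, with its first base 2 before the start. GGCGCC was in 5 of the 15, against 11.9% of all promoters: in *Lifr* with its first base 194 and 25 bases before the start, in *Jak1* and *Bmpr1a*, and in overlapping windows of *Smad5*, where 1 stretch was counted for 2 starts. This motif is made of G and C alone, and the windows that held it were 63.0% to 81.3% G and C. Its share among promoters of like content was not counted. The full cyclic AMP response element TGACGTCA, to which CREB binds, was in 1 promoter, that of *Jak1*, against 1.79% of all. A match is a run of letters and no binding was measured. In the GENCODE annotation of GRCm38 the gene bodies are chr15:7090614-7197489 for *Lifr*, chr3:141837136-142169425 for *Bmpr1b*, chr14:46383520-46390669 for *Bmp4* and chr11:102887336-102900912 for *Gfap*. The printed windows of *Lifr*, *Bmpr1b* and *Gfap* therefore lie inside the gene, at starts downstream of the first annotated one. *Bmpr1b*, the receptor with the largest change in the results below, held none of the 3 motifs in any of its 3 windows.

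Control nuclei numbered 4884 (16312170 UMIs, median 3219 per nucleus), CBP-ablated nuclei 3017 (12748336 UMIs, median 4016) and p300-ablated nuclei 4648 (18876682 UMIs, median 3902.5). Between 4 and 10 barcodes of a library recurred in another. The floxed genes did not check the labels: *Crebbp*, which encodes CBP, stood at 335, 370 and 365 CPM (UMIs of the gene per 1000000 UMIs of the library) in the control, CBP-ablated and p300-ablated libraries, and *Ep300*, which encodes p300, at 114, 136 and 115. UMIs were counted over the whole gene and not over the excised part, and how completely the genes had recombined was not tested here. The study reports removal of CBP and p300 in the differentiating cultures, and shows CBP staining lost from cultures given Cre. Marker lists of endothelial, mural, fibroblast and ependymal cells summed to between 0.689 and 8.71 CPM per list and library, while microglial markers summed to 140 in control, 75.5 in CBP-ablated and 71.2 in p300-ablated nuclei. Nuclei formed 12 clusters, of which 10 met their marker list and are called by it. An astrocyte-like class held 1280 control nuclei and none of either ablated library, where a count of 0 allows up to 0.0994% after CBP ablation and 0.0645% after p300 ablation. A cell type absent after ablation and a state of the control library alone cannot be told apart with 1 library each. The committed oligodendrocyte precursor-like class held 8.07% of control and 20.3% of CBP-ablated nuclei. Comparisons over all nuclei therefore mix the level in a class with the share of that class, and each is followed below by the levels within classes.

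*Lifr*, the ligand-specific chain of the LIF receptor, was highest in control at 83.1 CPM (95% Poisson interval 78.7 to 87.6), lower in p300-ablated at 60.1 (56.7 to 63.7) and lowest in CBP-ablated nuclei at 37.3 (34.1 to 40.8). These intervals, like all that follow, cover counting error only, and with 1 library per condition no test between conditions was possible. On the log2 scale the CBP-ablated library lay at -1.15 (-1.307 to -1.002) from control and the p300-ablated library at -0.47 (-0.58 to -0.35). *Il6st*, the signalling chain shared by the whole cytokine family, kept this order, at 59.0 CPM in control, 52.1 in p300-ablated (-0.18) and 45.6 in CBP-ablated nuclei (-0.37), all within 1.5-fold.

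The kinases stayed within 1.5-fold in every comparison. *Jak1* was counted at 85.03 CPM in control, 81.3 in CBP-ablated and 74.9 in p300-ablated nuclei, and *Jak2* at 104, 100.5 and 116. *Stat3*, the transcription factor they act on, stood at 223 CPM (216 to 230) in control and 218 (210 to 226) in CBP-ablated nuclei, levels whose intervals overlap. In p300-ablated nuclei it was higher, at 281 CPM (273 to 288), a log2 ratio to control of 0.33 (0.27 to 0.40), which is under 1.5-fold.

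On the BMP side of the 10 genes the ligand and 1 receptor were past 1.5-fold, and *Smad1* and *Smad5* were not. *Smad9*, a SMAD outside the 10, was at 17.2 CPM in control, 10.8 in CBP-ablated and 12.5 in p300-ablated nuclei. Over all nuclei it was past 1.5-fold lower after CBP ablation, but not without the astrocyte-like class described above or with equal class weights (below). *Bmp4* was counted at 14.3 CPM in control (12.5 to 16.2), 31.6 in CBP-ablated (28.6 to 34.9) and 10.1 in p300-ablated nuclei (8.73 to 11.7), log2 ratios of 1.15 and -0.50 to control. *Bmpr1b* fell from 256 CPM (248 to 264) to 103 (98.0 to 109) in CBP-ablated and 119 (114 to 124) in p300-ablated nuclei, or -1.31 (-1.40 to -1.22) and -1.10 (-1.18 to -1.03) on the log2 scale. Its relative *Bmpr1a* was at 269, 206 and 242 CPM, within 1.5-fold in both comparisons. *Smad1* stood at 94.8, 89.3 and 106 CPM and *Smad5* at 29.7, 29.1 and 29.5, the latter with overlapping intervals in all 3 libraries.

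**Figure D1:**
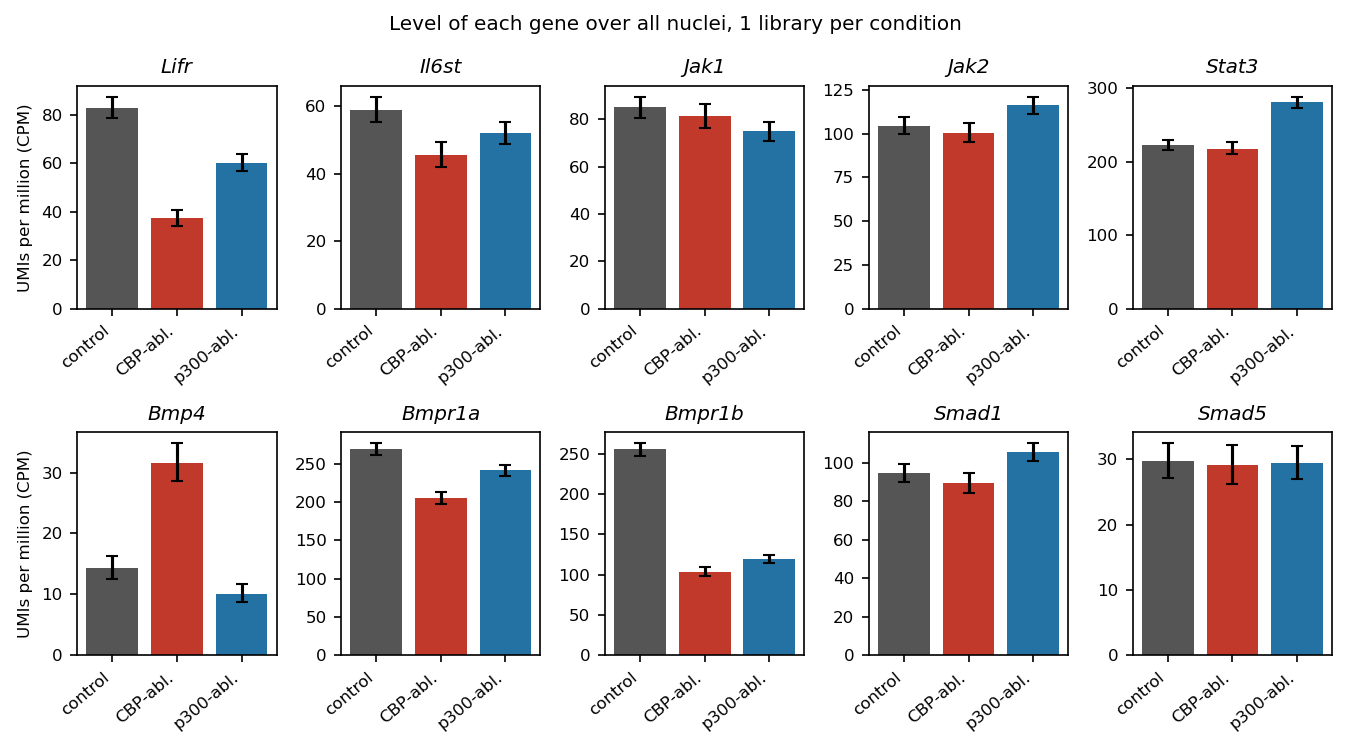
Level of each of the 10 genes in CPM over all nuclei, 1 bar per library, with 95% Poisson intervals of the count as error bars and each vertical axis starting at 0. *Lifr* and *Bmpr1b* were highest in control, *Bmp4* was highest in the CBP-ablated library, and *Smad5* was level.

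Counted as members past 1.5-fold, the CBP-ablated library had 1 of 10 higher than control (*Bmp4*) and 2 lower (*Lifr* and *Bmpr1b*). Of all 11883 genes with at least 100 UMIs in these libraries, 7.90% were past 1.5-fold higher and 9.97% lower. The p300-ablated library had none higher and 1 lower (*Bmpr1b*), against 4.37% and 7.77% of 12247 genes. Both comparisons use the same control library. Between the ablated libraries, p300-ablated nuclei had *Lifr* higher by 0.69 (0.53 to 0.84) and *Bmp4* at -1.64 (-1.90 to -1.39), against 8.03% of 11956 genes higher and 8.26% lower. Over the 10 genes the median log2 ratio to control was -0.08 after CBP ablation and -0.17 after p300 ablation, beside 0.06 and -0.03 over all genes counted. With 10 members, 1 or 2 past the limit is near the background share.

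Levels were also divided by the length of the gene body, as a description. How UMIs scale with that length was not tested, so the order between genes belongs to this measure alone. Per kilobase in control, *Gfap* (6.18 CPM per kilobase) was followed by *Stat3* (4.09), *Bmpr1a* (2.91), *Bmp4* (1.998), *Jak2* (1.70), *Smad1* (1.55) and *Il6st* (1.28). *Lifr*, *Bmpr1b*, *Smad5* and *Jak1* came last, between 0.753 and 0.777, a range too narrow to order them. The gene body of *Bmpr1b*, 332 kilobases on chromosome 3, is the longest of the 10, so its high CPM in control goes with a low level per length.

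Most of the 10 genes were read unevenly over the classes. In control, 2306 of the 4173 *Bmpr1b* UMIs (55.3%) came from the astrocyte-like class, which held 24.1% of all control UMIs. *Bmpr1b* stood at 587 CPM there (564 to 612), followed by glial progenitor-like nuclei at 541 (503 to 581) in control, 527 (489 to 566) in CBP-ablated and 453 (424 to 483) in p300-ablated, of which the control value overlaps the astrocyte-like one. RGC/PSC-like nuclei (the radial glia and stem cell mixture of the study) came next among the named classes at 308, 199 and 227 CPM, after the unnamed cluster 10 (328 in control), and NPC/OPC-like nuclei at only 22.6, 28.4 and 17.4. In NPC/OPC-like nuclei the share with a *Bmpr1b* UMI was close to that in microglia, which should lack the receptor, and is read as background: 6.53%, 7.18% and 5.52% at medians of 3239, 3472 and 3792.5 UMIs, against 7.10%, 4.00% and 3.77% of microglia-like nuclei at medians of 1134, 1010 and 1664. In astrocyte-like nuclei the share was 72.4%, or 52.7% (49.9% to 55.5%, exact binomial) after thinning each nucleus to 1500 UMIs.

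*Lifr* was also highest in astrocyte-like nuclei, at 146 CPM (134 to 158), which gave 573 of its 1355 control UMIs. Among the named classes of control it was next highest in cluster-5-like nuclei (98.2), glial progenitor-like (93.2) and RGC/PSC-like nuclei (89.6), 3 classes whose intervals overlap. The unnamed clusters 10 and 11 stood at 126 and 113. It was lowest in oligodendrocyte-like (10.7) and neuron-like nuclei (6.49). *Il6st* had another order, with glial progenitor-like nuclei first at 154 CPM in control (134 to 176), 128 in CBP-ablated and 133 in p300-ablated, ahead, among the named classes, of RGC/PSC-like (81.5) and astrocyte-like nuclei (73.1), which did not differ beyond their intervals. Astrocyte-like, glial progenitor-like and RGC/PSC-like nuclei were thus the 3 highest named classes of control for *Il6st* and among the 4 highest for *Lifr*.

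*Jak1* was highest in microglia-like nuclei at 281 CPM in control (223 to 349), 183 in CBP-ablated and 163 in p300-ablated, and in the neural classes highest in astrocyte-like nuclei at 127. *Jak2* ran the other way, from 192 CPM in control committed oligodendrocyte precursor-like nuclei to 54.3 in astrocyte-like nuclei. Over 34 points, each a class within a library, their levels had a Pearson correlation of -0.54. *Stat3* was broad, between 123 CPM in neuron-like and 297 in glial progenitor-like nuclei among the named classes of control, and astrocyte-like nuclei were among the lower classes for it at 157 (145 to 170).

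*Bmp4* was read almost wholly in committed oligodendrocyte precursor-like nuclei, premyelinating cells marked by *Bcas1* and *Enpp6*, which gave 218 of 233 UMIs in control, 362 of 403 in CBP-ablated and 161 of 191 in p300-ablated nuclei. Its level in that class was 131 CPM (114 to 149) in control, 127 (115 to 141) in CBP-ablated and 137 (116 to 159) in p300-ablated nuclei, so the 3 libraries overlapped there. The class held 8.07%, 20.3% and 5.14% of the nuclei, an order that the *Bmp4* level over all nuclei shared. At a finer clustering, 61.2%, 46.6% and 59.0% of its nuclei fell in a cluster with *Bmp4* itself among its leading genes. Most others fell in a cluster with *Enpp6* among them. The part of this finer mixture in the *Bmp4* levels of the class was not tested. A *Bmp4* UMI was in 32.5%, 32.7% and 36.4% of its nuclei at medians of 4194, 4562 and 4807 UMIs, and after thinning in 19.2%, 16.4% and 18.8%. Among microglia-like nuclei, which should lack it, 1 of 183 had one in control, 2 of 75 after CBP ablation and 0 of 53 after p300 ablation, the last allowing up to 5.66%. *Bmp4* was not among the 1576 genes used for clustering, of which *Bmpr1b* was the only member.

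*Bmpr1a* was more even over the classes than *Bmpr1b*, from 102 CPM in oligodendrocyte-like to 506 in cluster-5-like nuclei of control, with astrocyte-like nuclei at 314. *Smad1* was highest in glial progenitor-like nuclei (161 CPM in control) and at 61.7 in astrocyte-like nuclei, above only oligodendrocyte-like ones at 30.8, with microglia-like nuclei overlapping it at 63.2. *Smad5* lay between 17.8 and 42.1 CPM in control classes other than neuron-like nuclei at 68.1, which rest on 21 UMIs.

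**Figure D2:**
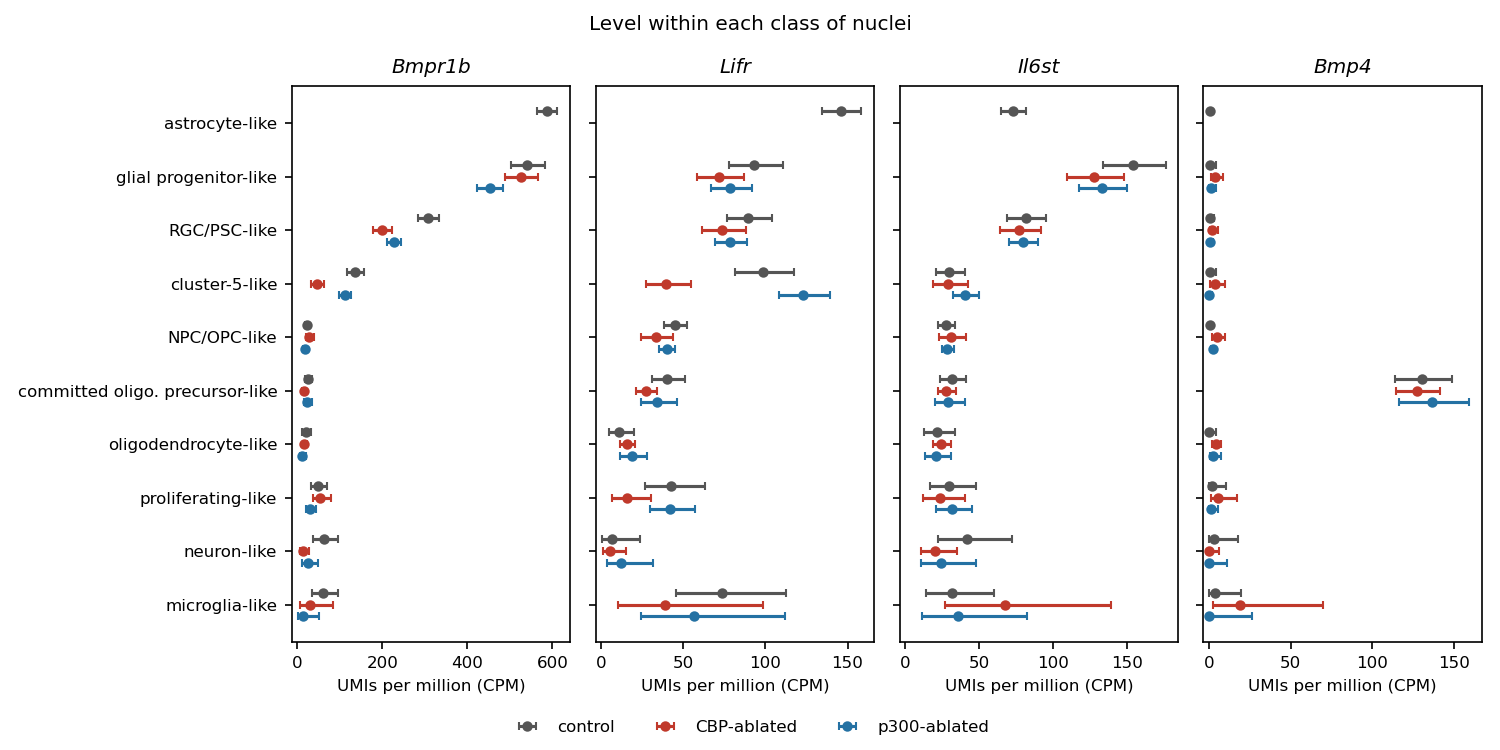
Level in CPM of *Bmpr1b*, *Lifr*, *Il6st* and *Bmp4* (4 panels) within the 10 named classes, with 1 point per library and 95% Poisson intervals as bars. Ablated libraries have no astrocyte-like nuclei, *Bmp4* stands apart in committed oligodendrocyte precursor-like nuclei in all 3 libraries, and *Bmpr1b* is highest in astrocyte-like and glial progenitor-like nuclei.

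Leaving out the astrocyte-like class brought *Bmpr1b* to -0.54 (-0.65 to -0.44) in CBP-ablated and -0.34 (-0.43 to -0.25) in p300-ablated nuclei, both within 1.5-fold. *Lifr* then lay at -0.76 (-0.93 to -0.59) in CBP-ablated, still past 1.5-fold, and at -0.07 (-0.20 to 0.06) in p300-ablated nuclei. *Bmp4* stayed past it in CBP-ablated nuclei at 0.76 and passed it in p300-ablated nuclei at -0.88 (-1.17 to -0.60). Counted so, 1 member was higher and 1 lower in CBP-ablated nuclei (6.03% and 7.15% of 11430 genes), and none higher and 1 lower in p300-ablated nuclei (2.29% and 4.10% of 11878 genes).

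When the shared classes of both libraries were given the same weights, no member was past 1.5-fold in any of the 3 comparisons, and the intervals given are approximate. By that measure 3.64% of genes were higher and 4.57% lower in CBP-ablated nuclei, 2.11% and 3.13% in p300-ablated nuclei, and 4.71% and 4.61% in p300-ablated against CBP-ablated nuclei. *Bmp4* came to 0.13 (-0.11 to 0.37) and 0.11 (-0.17 to 0.39), with intervals that include 0. *Bmpr1b* remained at -0.38 in both (-0.49 to -0.28 and -0.47 to -0.29) and *Lifr* at -0.49 (-0.66 to -0.32) in CBP-ablated nuclei, intervals on 1 side of 0. *Stat3* lay at -0.13 (-0.21 to -0.05) in CBP-ablated and 0.18 (0.11 to 0.24) in p300-ablated nuclei, and p300-ablated against CBP-ablated nuclei gave 0.34 (0.26 to 0.41). *Jak2* lay at -0.30, 0.03 and 0.34 in the same comparisons, and so was close to control in p300-ablated nuclei.

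**Figure D3:**
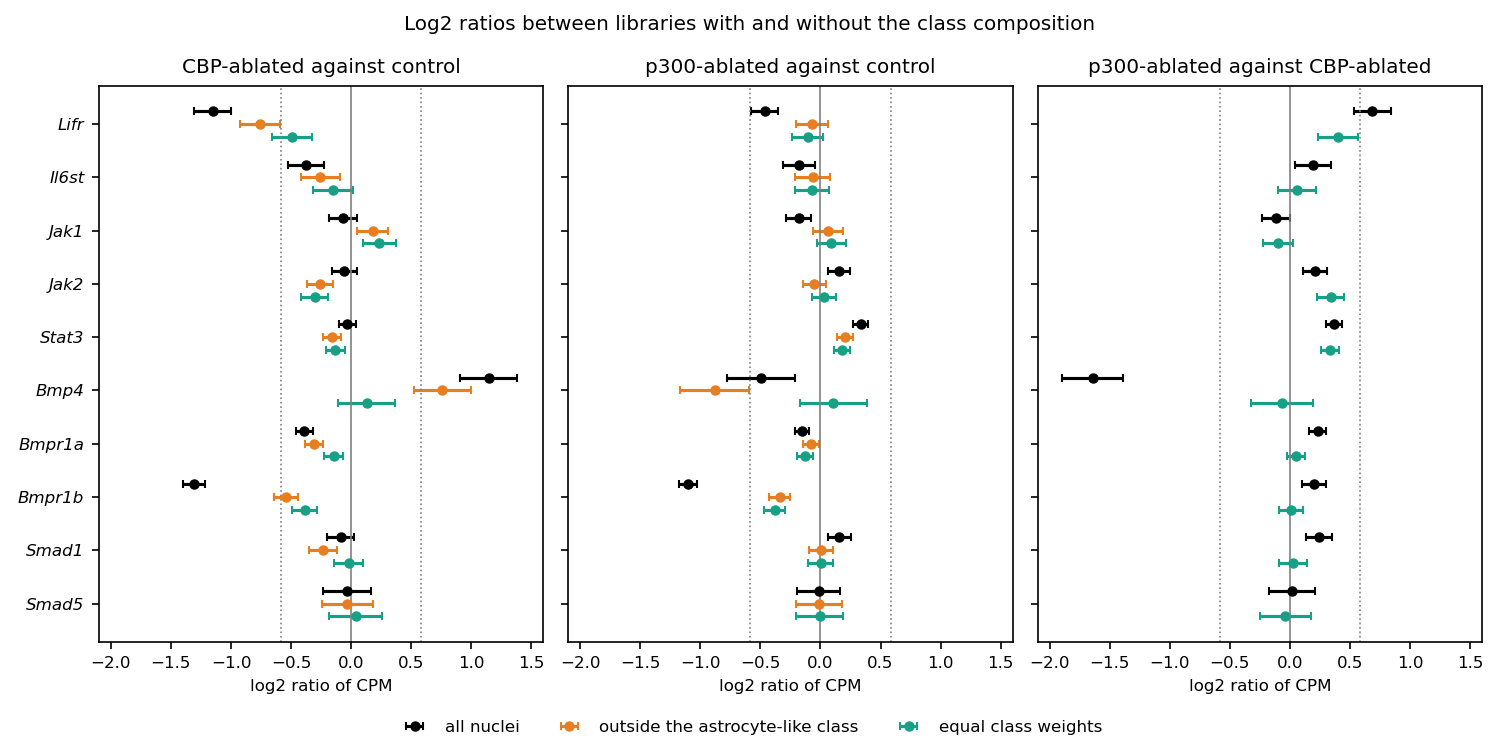
Log2 ratio of CPM of each gene in the 3 comparisons, over all nuclei (black), without the astrocyte-like class (orange) and with equal class weights (green), with 95% intervals of counting error and dotted lines at 1.5-fold. Against control *Bmpr1b* lies past the dotted lines over all nuclei in both ablated libraries, and *Bmp4* and *Lifr* in the CBP-ablated one, and every gene lies within them at equal weights. The comparison of ablated libraries has no orange points, because neither holds astrocyte-like nuclei.

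Within classes, a member was called where its 2 libraries together had at least 20 UMIs, the ratio was past 1.5-fold and its interval lay on 1 side of 0. In CBP-ablated against control nuclei, 2 of 95 pairs of a gene and a class were higher and 11 lower, beside 6.49% and 5.13% of 83234 pairs over all genes. In p300-ablated nuclei none of 94 was higher and 4 were lower (4.18% and 3.96% of all pairs), and p300-ablated against CBP-ablated nuclei gave 7 higher and 4 lower of 90 (5.55% and 6.83%). *Bmpr1b* gave 5 of the 11 lower pairs in CBP-ablated nuclei. In RGC/PSC-like nuclei it lay at -0.63 (-0.83 to -0.43), whereas in glial progenitor-like nuclei the intervals of both libraries overlapped. In p300-ablated nuclei *Bmpr1b* was called lower in neuron-like nuclei (8 against 19 UMIs) and the unnamed cluster 10. Its ratio to control was negative in all 9 classes counted. That included glial progenitor-like (453 against 541 CPM) and RGC/PSC-like nuclei (227 against 308), both under 1.5-fold. In microglia-like nuclei, read above as background, *Bmpr1b* itself stood at 59.7 CPM in control, 28.9 in CBP-ablated and 14.2 in p300-ablated nuclei (17, 3 and 2 UMIs). The levels called in neuron-like (61.6 CPM in control) and committed oligodendrocyte precursor-like nuclei (24.5) are near or under that background. With 10% free RNA subtracted, 18 of the member ratios called in named classes stayed within their intervals and 1 moved beyond its own. Ratios that the subtraction left under 20 UMIs were not computed, and the true share of free RNA was not measured.

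Cluster-5-like nuclei, marked by *Kcnj6*, *Nell2* and *Cacng4* and described as immature neurons by the study, held 4 of the lower pairs of the CBP-ablated library. *Lifr* was at 98.2 CPM in control nuclei and 39.3 after CBP ablation (log2 ratio -1.32, -1.91 to -0.76). *Bmpr1b* was at 45.1 against 136, or -1.59 (-2.13 to -1.08). *Bmpr1a* stood at 240.4 against 506, or -1.07 (-1.31 to -0.84), and *Stat3* at 159.5 against 290, or -0.86 (-1.16 to -0.58). Over all 8417 genes counted in this class, 7.98% were called lower and 11.9% higher. In p300-ablated nuclei of the class these genes, in the same order, stood at 123, 112, 458 and 388 CPM, and none was called against control (3.27% of 9418 genes higher, 4.59% lower). Against CBP-ablated nuclei all 4 were called higher, where 9.04% of 9164 genes were higher and 15.8% lower.

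The nuclei of that class were not the same mixture in the 3 libraries. At a finer clustering 34.0% of its control nuclei fell, as did 89.6% after CBP ablation and 6.65% after p300 ablation, into a cluster with *Gpr149* and *Dll3* among its leading genes that met the NPC/OPC list, and most others in a cluster led by *Kcnj6*, *Disp3* and *Insyn2b*. Within the first, *Lifr* remained lower in CBP-ablated nuclei, with 20 UMIs in 233 nuclei against 26 in 123 (-1.44, -2.36 to -0.54), while *Stat3* came to -0.14 (-0.61 to 0.35), *Bmpr1b* to -0.63 (-1.46 to 0.21) and *Bmpr1a* to -0.52 (-0.87 to -0.16). These *Lifr* levels were 26.1 CPM after CBP ablation and 70.9 in control. Microglia-like nuclei of the same libraries stood at 38.6 (4 of 75 nuclei with a *Lifr* UMI) and 73.7, and the part of background in the *Lifr* levels was not tested. Within the second, which held 21 CBP-ablated nuclei, *Lifr* was at 0.41 (-0.59 to 1.28), *Bmpr1a* at -0.31 (-0.82 to 0.16), *Bmpr1b* at -0.78 (-2.02 to 0.24) and *Stat3* at -0.022 (-0.64 to 0.54). This split was chosen after the values were seen, and within neither cluster were *Stat3*, *Bmpr1a* or *Bmpr1b* past 1.5-fold with an interval on 1 side of 0 for CBP-ablated against control. In p300-ablated against CBP-ablated nuclei *Stat3* stayed higher within the first, at 1.31 (0.74 to 1.86), on 38 and 110 UMIs. So did *Lifr*, at 1.69 (0.38 to 2.90) on 9 and 20 UMIs, and *Jak2* was at 1.03 (0.29 to 1.71) on 23 and 81. *Bmpr1a* and *Bmpr1b* came to 0.24 and 0.21 there, with intervals that include 0. Against control, *Stat3* of p300-ablated nuclei was at 1.17 (0.54 to 1.79) within the first and 0.16 (-0.03 to 0.36) within the second. The first held only 34 p300-ablated nuclei.

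Other called pairs were scattered. In committed oligodendrocyte precursor-like nuclei of the CBP-ablated library *Jak1* was higher at 73.2 CPM against 40.7, or 0.85 (0.45 to 1.26), and between the ablated libraries *Jak2* was higher in p300-ablated nuclei at 222 against 133 CPM (0.74, 0.51 to 0.97). The finer mixture of this class, given above with *Bmp4*, differed between the libraries, and its part in these ratios was not tested. In proliferating-like nuclei *Lifr* had 8 UMIs in CBP-ablated and 23 in control nuclei. In microglia-like nuclei of the p300-ablated library *Jak1* was at 163 CPM against 281 in control (-0.78, -1.52 to -0.10). *Smad1* was called in no class of any comparison.

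**Figure D4:**
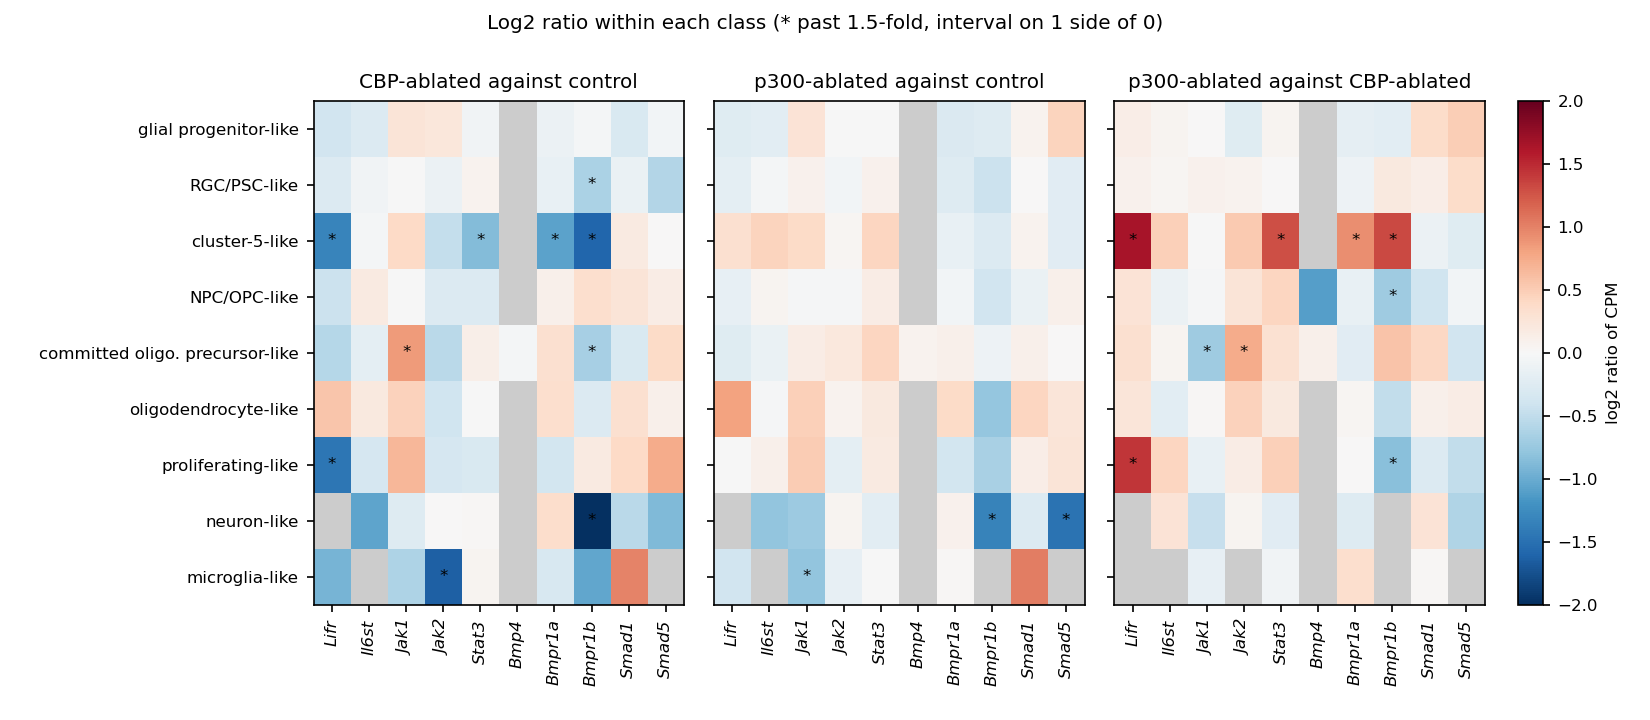
Log2 ratio of CPM of the 10 genes (columns) within 9 named classes (rows) for the 3 comparisons, from blue (lower) to red (higher), with a star on called pairs and grey where fewer than 20 UMIs were counted. Stars gather in the cluster-5-like row of the CBP-ablated library, at *Lifr*, *Stat3*, *Bmpr1a* and *Bmpr1b*.

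The other genes of the pathways were taken from a list of 64, of which 45 had at least 100 UMIs in the libraries compared. The CBP-ablated library had 4 of these past 1.5-fold higher than control and 6 lower, or 8.89% and 13.3% of the 45, beside 7.90% and 9.97% of all genes. The p300-ablated library had 4 higher and 2 lower, or 8.89% and 4.44%, beside 4.37% and 7.77%. With equal class weights the CBP-ablated library had 2 higher and 4 lower (3.64% and 4.57% of all genes) and the p300-ablated library 2 higher and none lower (2.11% and 3.13%). Ligands of the LIF family were nearly unread in the cultures themselves: *Lif* had 7, 4 and 9 UMIs in control, CBP-ablated and p300-ablated nuclei, and *Cntf* had none in any, which allows up to 0.184, 0.235 and 0.159 CPM. Among receptors, *Il6ra*, the interleukin 6 receptor, was at 10.7, 5.80 and 9.22 CPM, and *Il11ra1*, the interleukin 11 receptor, at 9.62, 6.43 and 5.93. *Socs2*, a feedback inhibitor of cytokine receptors, was higher in CBP-ablated nuclei (13.8 against 8.40 CPM), and *Socs3*, the inhibitor that STAT3 induces, in p300-ablated nuclei (6.36 against 3.86). At equal class weights *Il6ra* and *Socs2* both came to 0.07 in CBP-ablated nuclei and *Il11ra1* to 0.01 in p300-ablated nuclei, while *Socs3* was at 0.57. *Il6ra* turned in p300-ablated against control nuclei, from -0.22 (-0.53 to 0.09) over all nuclei to 0.63 (0.27 to 0.995) at equal weights, and stood at 28.7 CPM (21.7 to 37.1) in their glial progenitor-like nuclei, against 5.87 (2.54 to 11.6) in control. *Stat5a*, at 6.28 against 9.99 CPM in CBP-ablated nuclei, overlaps *Stat3* on the opposite strand, and whether strand was used in counting is not given in the sources used here. The same limit holds for *Jak1*, *Bmp4*, *Bmpr1a* and *S100b*, each of which also overlaps a counted gene on the other strand.

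BMP ligands moved in different directions. *Bmp6* was at 63.8 CPM in control, 128 in CBP-ablated and 134 in p300-ablated nuclei, log2 ratios of 1.01 (0.89 to 1.12) and 1.07 (0.97 to 1.18). It was read mainly in RGC/PSC-like nuclei, where it stood at 385 CPM (357 to 414) in control, 632 (595 to 672) in CBP-ablated and 554 (529 to 580) in p300-ablated nuclei, and at equal class weights it kept 0.82 in CBP-ablated and 0.56, under 1.5-fold, in p300-ablated nuclei. The finer mixture of that class, given above with *Bmpr1b*, differed between the libraries, and its part in the *Bmp6* levels was not tested. *Bmp7* fell from 18.5 CPM to 5.02 in CBP-ablated nuclei, or -1.88 (-2.29 to -1.48), and was at 22.0 in p300-ablated nuclei. *Bmper*, which encodes a secreted BMP-binding protein, fell from 24.3 to 8.55 CPM in CBP-ablated nuclei and stood at 17.3 in p300-ablated nuclei. Equal class weights left *Bmp7* at -0.87 and *Bmper* at -0.84 in CBP-ablated nuclei, still past 1.5-fold.

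*Smad7*, an inhibitor of SMAD signalling, had the highest ratio among the 45 listed genes with at least 100 UMIs after CBP ablation, at 47.4 CPM in control, 140 in CBP-ablated (1.56, 1.44 to 1.69) and 52.6 in p300-ablated nuclei. Within oligodendrocyte-like nuclei, where it was highest, the libraries overlapped at 432 CPM (389 to 479), 443 (419 to 468) and 402 (367 to 440), and at equal class weights its ratio in CBP-ablated nuclei was 0.17. The share of nuclei in that class was 3.28% in control, against 16.1% after CBP ablation and 4.15% after p300 ablation. In committed oligodendrocyte precursor-like nuclei *Smad7* was at 85.6 CPM (75.2 to 97.0) in the CBP-ablated library, above 55.7 (44.9 to 68.2) in control. There the p300-ablated library stood at 72.1 (57.6 to 89.1), overlapping both. The finer mixture of this class, given above with *Bmp4*, differed between the libraries, and its part here was not tested either. *Smad6*, the inhibitor that acts on BMP receptors, was at 18.6 CPM in control and 29.7 in p300-ablated nuclei (0.67), and at 0.23 with equal weights. *Chrdl1*, a BMP antagonist, was at 5.70 and 3.76.

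Of the target genes, the *Id* genes, which BMP-SMAD signalling induces, were all within 1.5-fold of control over all nuclei in both ablated libraries. *Id2* passed it in CBP-ablated nuclei once the astrocyte-like class was left out, at -0.60 (-0.81 to -0.40), and came to -0.21 with equal weights. *Atoh8*, another BMP target, was at 11.95 CPM in control, 6.75 in CBP-ablated and 11.3 in p300-ablated nuclei, and at -0.81 in CBP-ablated nuclei with equal weights. *Gfap*, the intermediate filament gene that STAT3 and SMAD1 activate in astrocytes, was higher in CBP-ablated nuclei, at 152 CPM (146 to 159) against 83.9 (79.5 to 88.5) in control and 86.7 (82.6 to 91.0) in p300-ablated nuclei. With equal class weights the CBP-ablated library lay at 0.96, and *Gfap* was called higher in 5 of its classes. In RGC/PSC-like nuclei it was at 170 CPM (151 to 191) against 47.2 (37.9 to 58.2) in control and 46.6 in p300-ablated nuclei, and in glial progenitor-like nuclei, for which it is a marker, at 1009 against 561 and 619. The part of the finer mixture of RGC/PSC-like nuclei, given above with *Bmpr1b*, in these *Gfap* levels was not tested. In the other 3 of these classes (NPC/OPC-like, committed oligodendrocyte precursor-like and oligodendrocyte-like) CBP-ablated nuclei were at 20.3, 19.4 and 27.8 CPM, beside 19.3 in their microglia-like nuclei, and the part of free RNA in these low values was not tested. *S100b*, which marks mature astrocytes in staining, was at 20.97, 28.8 and 15.0 CPM and was highest not in astrocyte-like nuclei (18.1) but in control committed oligodendrocyte precursor-like (61.7) and oligodendrocyte-like nuclei (54.5). In the study's staining at day 15, GFAP intensity and the share of cells positive for S100β were lower in both ablated cultures than in control. Staining measures protein, whereas the levels given here are of RNA in nuclei.

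**Figure D5:**
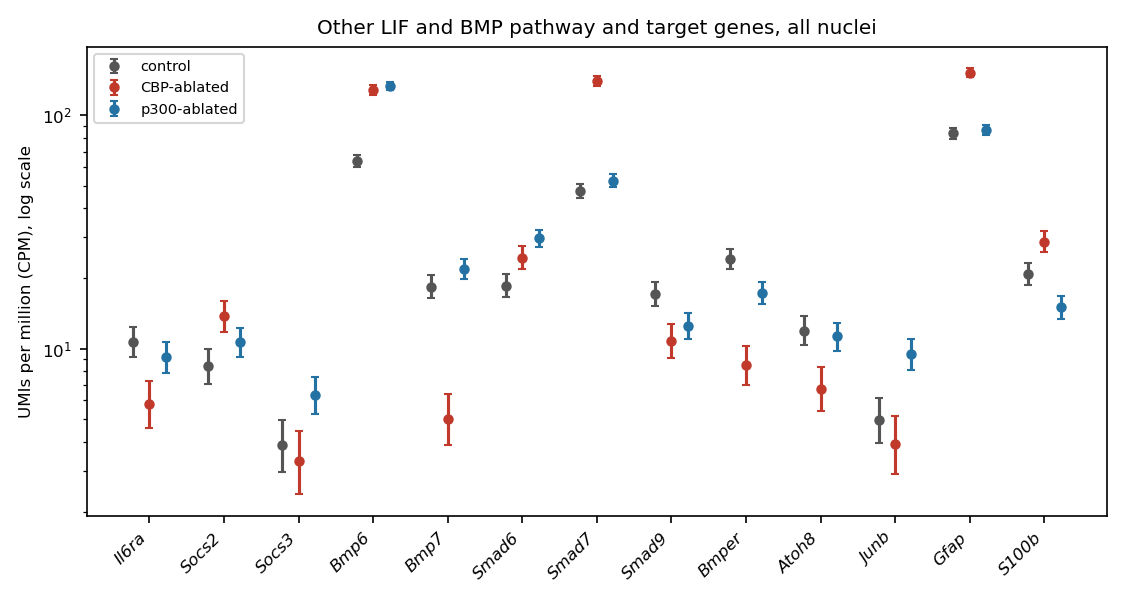
Level in CPM, on a log axis, of 13 other pathway and target genes in the control (grey), CBP-ablated (red) and p300-ablated (blue) libraries over all nuclei, with 95% Poisson intervals. *Bmp6* is higher in both ablated libraries, *Smad7* and *Gfap* in the CBP-ablated library, and *Bmp7* and *Bmper* are lowest there.

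Across the same 34 points, 6228 genes with at least 1000 UMIs were ranked by the correlation of their log2(CPM + 1) level with each member, as a description, since points share libraries and depth. *Bmpr1b* was most like *Mcc* (Pearson r = 0.93), *Tom1l1* (0.90) and *Plcd4* (0.89). *Lifr* was most like *Pdlim5* (0.88), *Notch1* (0.82) and *Mtarc2* (0.82), and *Il6st* most like *Mt1* (0.91), *Wwtr1* (0.89) and *Clu* (0.88). *Bmp4*, nearly confined to 1 class, came nearest to *Rictor* (0.80), and *Smad5* to *Chsy1* (0.62). Among the members the closest pairs were *Lifr* with *Bmpr1a* (0.77), and *Il6st* with *Lifr* and with *Smad1* (both 0.69).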

How the data were processed

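Single-nucleus RNA was measured in 3 libraries (control, CBP-ablated, p300-ablated), grouped by their genotype labels. The authors deposited raw UMI counts per gene and nucleus, made with Cell Ranger 3.1 on GRCm38 (mm10) from exonic and intronic reads, and checked here to be whole numbers. All nuclei were kept.

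UMIs were summed per library and class and divided by the total UMIs (CPM). Intervals are exact Poisson (levels), conditional exact binomial (ratios) or exact binomial (shares), at 95%, and normal approximations for weighted ratios. A count of 0 was read against 3 UMIs. With 1 library per condition no test was made, and a ratio past 1.5-fold, with at least 100 UMIs in both libraries together, is a rule of size. The recovery of known ratios was checked on data simulated with counting error only. That check does not cover spread between nuclei or cultures. For equal class weights, each class present in both libraries took the mean of its UMI shares.

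Clusters came from Seurat 5.3.0 (R 4.3.3) with 20 components, a resolution of 0.6 and 1576 variable genes. To be named, a cluster needed 3 or more markers, and 60% or more of a list, detected in 10% of its nuclei at 2 times the level elsewhere. Doublets, scored with Scrublet in scanpy 1.11.5 and called at 0.8% per 1000 nuclei (191, 73 and 173), were kept and left out only as an alternative. TMM factors came from edgeR 4.0.16, and sums from scipy 1.17.1, pandas 2.3.3 and numpy 2.4.6 under Python 3.11.15. Promoters are RefSeq's, and gene bodies are from GENCODE M21, which held 30410 of the 30559 features.

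The members, marker lists and pathway lists were chosen with earlier results of these data known. The text names the 10 members, *Gfap* and *S100b*, up to 5 highest and 5 lowest other pathway genes past 1.5-fold per comparison with an interval excluding 0, and the 3 most correlated genes of a member. The *Id* genes, *Lif*, *Cntf*, *Smad9* and the leading genes of finer clusters fall outside this rule and were named after their values were seen. Alternatives covered scaling, filters, doublets, thinning, free RNA, class weights and clustering.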

Additional observations from a re-analysis of the deposited data

Results flagged for a closer look

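Between the ablated libraries *Bmpr1b* moved in opposite directions in different classes. In p300-ablated against CBP-ablated nuclei its log2 ratio was 1.31 (0.82 to 1.84) in cluster-5-like nuclei, -0.71 (-1.23 to -0.17) in NPC/OPC-like and -0.84 (-1.64 to -0.03) in proliferating-like nuclei. The difference between classes was not tested, the proliferating-like value rests on 29 and 28 UMIs, the NPC/OPC-like levels are close to background, and the cluster-5-like nuclei of these libraries lay in different finer clusters.

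The features listed for the lentiviruses, which enter no comparison above, followed the labels. The RFP virus of the control had 108 UMIs in the control library, in 1.88% of its nuclei, and 0 in both ablated libraries, which allows up to 0.235 and 0.159 CPM. The first Cre-mCherry feature had 0 UMIs in control, which allows up to 0.184 CPM, 21 in CBP-ablated and 9 in p300-ablated nuclei, and the second 0, 8 and 7. These features separate control from Cre cultures and do not tell the CBP-ablated from the p300-ablated library.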

How the results depend on the processing

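No paired analysis was possible because each condition has 1 library, and for the same reason no replicate could be left out. Equal class weights changed the most values. They took the members past 1.5-fold from 3 to 0 in CBP-ablated against control, from 1 to 0 in p300-ablated against control and from 2 to 0 in p300-ablated against CBP-ablated nuclei, the other pathway genes from 10 to 6 and from 6 to 2 against control, and the median of the members from -0.17 to -0.0030 in p300-ablated against control and from 0.21 to 0.037 between ablated libraries. Without the astrocyte-like class the median went from -0.08 to -0.25 in CBP-ablated and from -0.17 to -0.058 in p300-ablated nuclei, and 3 pathway genes were past 1.5-fold in the latter. Centring on all genes and TMM factors gave medians of 0.30 and 0.31 between the ablated libraries. A limit of 2-fold left 4, 1 and 4 of the 10, 6 and 9 pathway genes, and 1 of 2 members between the ablated libraries.

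Within classes, assigning each nucleus to its highest marker score gave 7 called pairs in named classes in place of 3 for p300-ablated against control and 5 in place of 9 between ablated libraries. In cluster-5-like nuclei *Lifr* reversed in CBP-ablated against control at resolution 1.2 (0.48), with variable genes taken without pathway genes (0.36) and within the *Kcnj6* cluster found at resolution 1.2 (0.41, an alternative added after seeing the data), and in p300-ablated against CBP-ablated nuclei at -0.30, -0.022 and -0.21 under the same alternatives. *Bmpr1a* reversed there between ablated libraries at resolution 1.2 (-0.0064) and within that cluster (-0.0051), and *Bmpr1b* in NPC/OPC-like nuclei at resolution 0.3 (0.19). These alternatives change which nuclei make up the class. No member ratio, over all nuclei or called within a named class, moved beyond its interval or reversed when doublets were left out, nuclei of at least 1500 UMIs kept or, within classes, a second seed used. Outside its main class *Bmp4* had 24 UMIs or fewer per class over all libraries, so its levels there rest on few counts.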

Other observations

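*Junb* and *Socs3*, chosen for their class levels after these were seen, stood higher in glial progenitor-like nuclei of the p300-ablated library than in those of the other libraries. *Gfap* did not share this order, at 561 CPM in control, 1009 in CBP-ablated and 619 in p300-ablated nuclei of the class. *Junb*, an AP-1 subunit, was at 43.8 CPM (35.0 to 54.0) in that class, against 11.7 (6.71 to 19.1) in control and 9.40 (5.01 to 16.1) in CBP-ablated nuclei. *Socs3* was at 18.1 CPM (12.7 to 25.1), against 5.87 and 4.34. Over all nuclei *Junb* was at 9.48 CPM in p300-ablated, 4.97 in control and 3.92 in CBP-ablated nuclei, and 48.6% of its p300-ablated UMIs came from glial progenitor-like nuclei. In RGC/PSC-like nuclei the 3 libraries overlapped for both genes.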
